A study of Rattus norvegicus with 16 samples.

Results

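Genes of polyamine metabolism were followed in rat supraspinatus, a muscle of the rotator cuff, before and after its tendon was torn and its nerve cut. The 10 genes (Odc1, Amd1, Srm, Sms, Oaz1, Oaz2, Azin1, Sat1, Smox and Paox) were chosen by name, with earlier results of these data known. They encode the enzymes that make and break down polyamines and the proteins that control the entry enzyme. All 10 were among the 17147 genes of the deposited table. Of the 10, 9 had enough fragments to be tested. Srm was listed at 0 in all 16 libraries, as were Rps6, Rpl8 and Polr2h, genes that every cell uses, so a 0 in this table may be a failed estimate and no level of Srm is given.

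The animals were Sprague Dawley rats, and there were 4 groups of 4 libraries. The 0-day group was unoperated muscle. The 10-, 30- and 60-day groups came from rats with a complete tear of the supraspinatus on both sides and suprascapular neurectomy, the removal of a piece of the nerve that drives the muscle. The labels name no sham operation and no group with the tear or the neurectomy alone, so the effects of tear, nerve loss and surgery cannot be told apart. Sex, age and whether any libraries came from the same rat are not given in the sources used here, and p-values measure the spread between these libraries.

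Putrescine, spermidine and spermine are small positively charged molecules that bind RNA and DNA and are needed for growth and translation. Ornithine decarboxylase (Odc1) makes putrescine, S-adenosylmethionine decarboxylase (Amd1) supplies the aminopropyl groups, and spermidine synthase (Srm) and spermine synthase (Sms) attach them. Antizymes (Oaz1 and Oaz2) send ornithine decarboxylase to the proteasome, and the antizyme inhibitor Azin1, a relative of the enzyme without its activity, holds antizyme off. Breakdown runs through spermidine/spermine acetyltransferase (Sat1) with acetylpolyamine oxidase (Paox), or directly through spermine oxidase (Smox). Lower expression of Smox, Amd1 and other polyamine genes is known from several forms of muscle wasting.

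Libraries held 17.2 M to 39.9 M fragments, with the 4 libraries of 60 days (17.2 M to 22.4 M) below all others. Levels are given as CPM, fragments scaled to a common library total with edgeR's TMM factors, and they compare libraries for 1 gene, not genes with each other, since transcripts differ in length. Defining genes of skeletal muscle fibres were present in every group, with a summed level of 280272 to 306877 CPM for 12 genes at 0 days. All 5 genes used to check denervation (Chrna1, Chrng, Myog, Ncam1 and Runx1) were higher at 10, 30 and 60 days (33.3%, 33.7% and 29.9% of all genes). TMM factors were 0.750 to 0.775 at 0 days and 1.18 to 1.24 at 10 days. With library totals in place of TMM, the all-gene median of the log2 fold change moved up by 0.66, 0.49 and 0.41 at 10, 30 and 60 days, so each log2 fold change here is a shift relative to most other genes.

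The pathway did not move as one. Sat1 rose 8.46-fold at 10 days, Odc1, Sms and Azin1 rose 1.32- to 1.79-fold, and Amd1, Smox, Oaz2 and Paox fell. In whole muscle, a change in the number of cells of a type and a change in RNA per cell cannot be told apart. At 10 days 4 of the 9 tested genes were called higher, where 33.3% of all 11658 genes tested were, and 4 were called lower (29.4% of all genes). A gene was called where edgeR's quasi-likelihood test over the whole table gave a Benjamini-Hochberg adjusted p under 0.05. The same 4 and 4 genes were called at 30 days (33.7% of all genes higher, 30.9% lower). At 60 days Sat1 alone of the 9 was called higher (29.9% of all genes), and Amd1, Smox, Oaz2 and Paox were called lower (29.1%). All 9 differed somewhere among the 4 groups in the joint F test, as did 84.7% of all genes. Shares this close to those of all genes do not set the 9 genes apart from the table. The median log2 fold change of the 9 genes was 0.24, 0.12 and -0.11 at 10, 30 and 60 days, beside 0.06, 0.05 and 0.04 for all genes. With library totals, 6 of the 9 were called higher and 3 lower at 10 days, 5 and 2 at 30 days, and 5 and 2 at 60 days. Of all 11658 genes tested, library totals called 8166 higher and 1182 lower at 10 days. The all-gene counts were 7361 and 1393 at 30 days and 6737 and 1407 at 60 days.

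**Figure D1:**
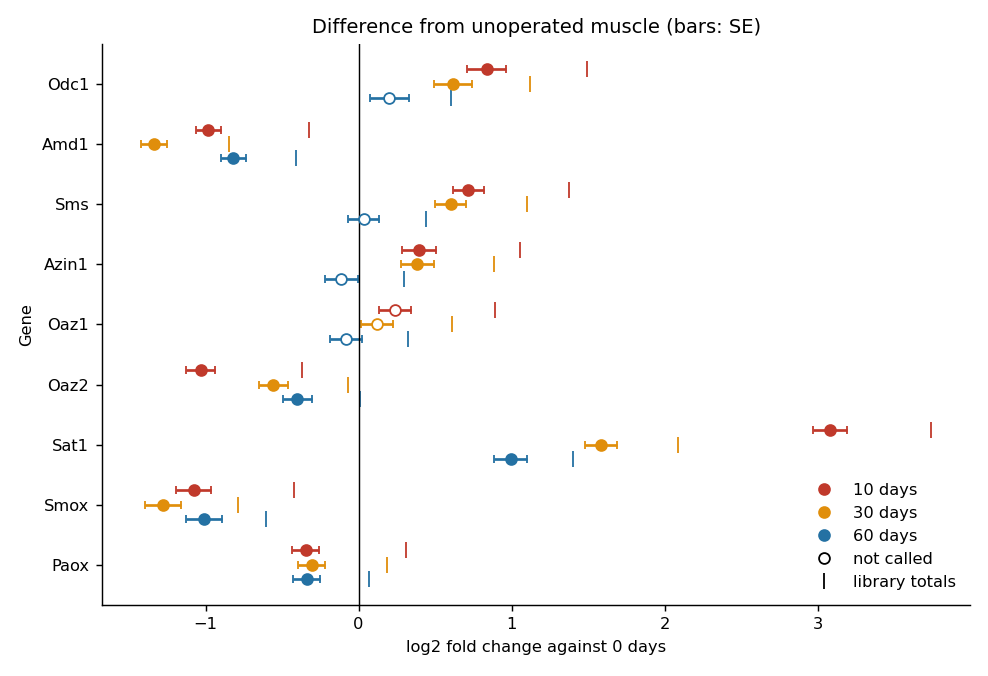
Log2 fold change against 0 days (x axis) of 9 polyamine genes (y axis) at 10, 30 and 60 days, with bars for the SE; filled points were called by edgeR (adjusted p under 0.05), open points were not, and upright ticks give the value with library totals in place of TMM. Sat1 lies farthest to the right at each time, Amd1 and Smox lie left of 0 with either scaling, and the Paox ticks lie right of 0 while its points lie left.

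The sequence just upstream of the gene start is shown for the pair of genes that rose with the largest log2 fold changes at 10 days, Sat1 and Odc1, and for a synthesis and a breakdown gene that fell together at all 3 times, Amd1 and Smox. Each is the 250 bases before the gene start in RefSeq's annotation of the rat assembly GRCr8, read on the gene's own strand, 5′ to 3′. The submitters' processing notes name rn5 as the genome for the counts, so the coordinates are those of the sequence table and not of the counts. Capitals mark matches, on either strand, to 4 motifs: the E-box CACGTG, the CCAAT box CCAAT, the GC box GGGCGG and the TATA box TATAAA.
Sat1 (chrX:44007839-44008088, plus strand): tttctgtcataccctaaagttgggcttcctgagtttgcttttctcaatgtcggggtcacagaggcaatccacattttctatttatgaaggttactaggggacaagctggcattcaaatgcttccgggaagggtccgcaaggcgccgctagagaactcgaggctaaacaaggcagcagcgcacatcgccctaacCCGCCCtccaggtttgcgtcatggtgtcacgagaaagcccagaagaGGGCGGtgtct
Odc1 (chr6:46058415-46058664, plus strand): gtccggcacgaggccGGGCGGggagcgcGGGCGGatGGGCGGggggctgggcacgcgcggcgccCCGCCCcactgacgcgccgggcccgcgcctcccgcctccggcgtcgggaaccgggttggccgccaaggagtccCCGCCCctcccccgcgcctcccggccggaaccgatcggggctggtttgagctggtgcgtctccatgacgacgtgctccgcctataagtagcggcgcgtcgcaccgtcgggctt
Amd1 (chr20:45265983-45266232, minus strand): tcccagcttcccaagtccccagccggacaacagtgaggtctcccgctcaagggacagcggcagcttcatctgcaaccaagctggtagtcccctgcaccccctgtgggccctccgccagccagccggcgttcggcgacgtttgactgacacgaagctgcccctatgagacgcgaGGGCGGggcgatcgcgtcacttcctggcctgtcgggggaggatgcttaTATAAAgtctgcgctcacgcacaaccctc
Smox (chr3:139204351-139204600, plus strand): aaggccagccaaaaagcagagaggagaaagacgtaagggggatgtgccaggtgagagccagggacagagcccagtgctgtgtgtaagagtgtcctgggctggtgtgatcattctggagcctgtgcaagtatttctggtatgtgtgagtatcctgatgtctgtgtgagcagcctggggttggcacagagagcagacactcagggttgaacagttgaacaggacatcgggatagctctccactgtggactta
The Odc1 window held 5 matches to the GC box, Sat1 held 2, Amd1 held 1 and Smox held none. Amd1 also held TATAAA, 29 bases before its start. Of the 9 genes with an entry in the table (Azin1 is not among them), 8 held GGGCGG, against 30.5% of 33469 windows of the same length, a set that also holds genes that are not expressed in muscle. TATAAA was in 2 of the 9 (Amd1 and Oaz1) and in 12.9% of all windows. CACGTG was in 2 (Srm and Oaz1) against 5.59%, and CCAAT was in the same 2 against 34.0%. GC box matches stood in windows of genes that rose and of genes that fell. Sms, which rose, held 3, and Oaz2 and Paox, which fell, held 4 and 2. A match is a run of letters, and binding was not measured.

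Among the synthesis genes, Odc1 rose early and came back towards its unoperated level. Odc1 was at 86.5, 102, 91.3 and 84.3 CPM in the 4 libraries of 0 days and at 152, 179, 158 and 161 CPM at 10 days. At 30 days the 4 values of Odc1 were 153, 115, 128 and 162 CPM, and at 60 days they were 134, 90.5, 104 and 90.6 CPM. Each library of 10 and 30 days was above each library of 0 days. At 60 days 2 libraries lay within the unoperated range and 2 lay above it. At 10 and 30 days Odc1 rose by log2 0.84 ± 0.13 and 0.62 ± 0.13 (SE; edgeR adjusted p 2.35e-05 and 0.000462). At 60 days its log2 fold change was 0.20 ± 0.13 (edgeR adjusted p 0.179), and it was called higher there with library totals (0.60, edgeR adjusted p 0.000515) and with upper-quartile factors (0.34, edgeR adjusted p 0.0195). The 60-day value of Odc1 was 0.06 without 60-day replicate 1, the library at 134 CPM, and between 0.18 and 0.29 with any other library left out.

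Amd1 went the other way. It was at 126, 120.1, 128 and 111 CPM at 0 days and at 54.1, 65.6, 62.8 and 63.4 CPM at 10 days. At 30 days Amd1 was at 41.7, 51.7, 48.6 and 50.4 CPM and at 60 days at 72.5, 71.8, 62.1 and 68.8 CPM. All 12 libraries after injury lay below all 4 of unoperated muscle, with the lowest values at 30 days. Amd1 fell by 49.4% at 10 days (log2 fold change -0.98 ± 0.08 SE, edgeR adjusted p 3.08e-08). It fell by 60.4% at 30 days (-1.34 ± 0.08, edgeR adjusted p 1.90e-09) and fell by 43.3% at 60 days (-0.82 ± 0.08, edgeR adjusted p 5.54e-07). The fall was smaller with library totals, at -0.32, -0.85 and -0.41, and was called at each time (edgeR adjusted p 0.00124, 1.13e-07 and 0.000252).

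Sms, which turns spermidine into spermine, followed Odc1 and not Amd1. The unoperated libraries had 52.4, 45.6, 53.6 and 51.5 CPM of Sms, and those of 10 days had 84.1, 74.3, 89.0 and 86.4 CPM. Values of Sms were 86.2, 68.5, 70.3 and 83.4 CPM at 30 days, then 59.7, 48.6, 44.5 and 54.9 CPM by 60 days. The 8 libraries of 10 and 30 days were above all 8 of 0 and 60 days. At 10 and 30 days Sms rose by log2 0.72 ± 0.10 and 0.60 ± 0.10 (SE; edgeR adjusted p 9.42e-06 and 6.27e-05), and its 60-day value was 0.03 ± 0.10 (0.784). With library totals the 60-day value of Sms was 0.44 and called (edgeR adjusted p 0.00301).

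RefSeq's GRCr8 annotation names 10 pseudogenes for Odc1, 3 for Amd1, 2 for Sms and 2 for Oaz1. The table lists none of these pseudogenes. How the authors' counting treated fragments that also fit such copies is not given in the sources used here, so the levels of these 4 genes are uncertain to that extent.

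**Figure D2:**
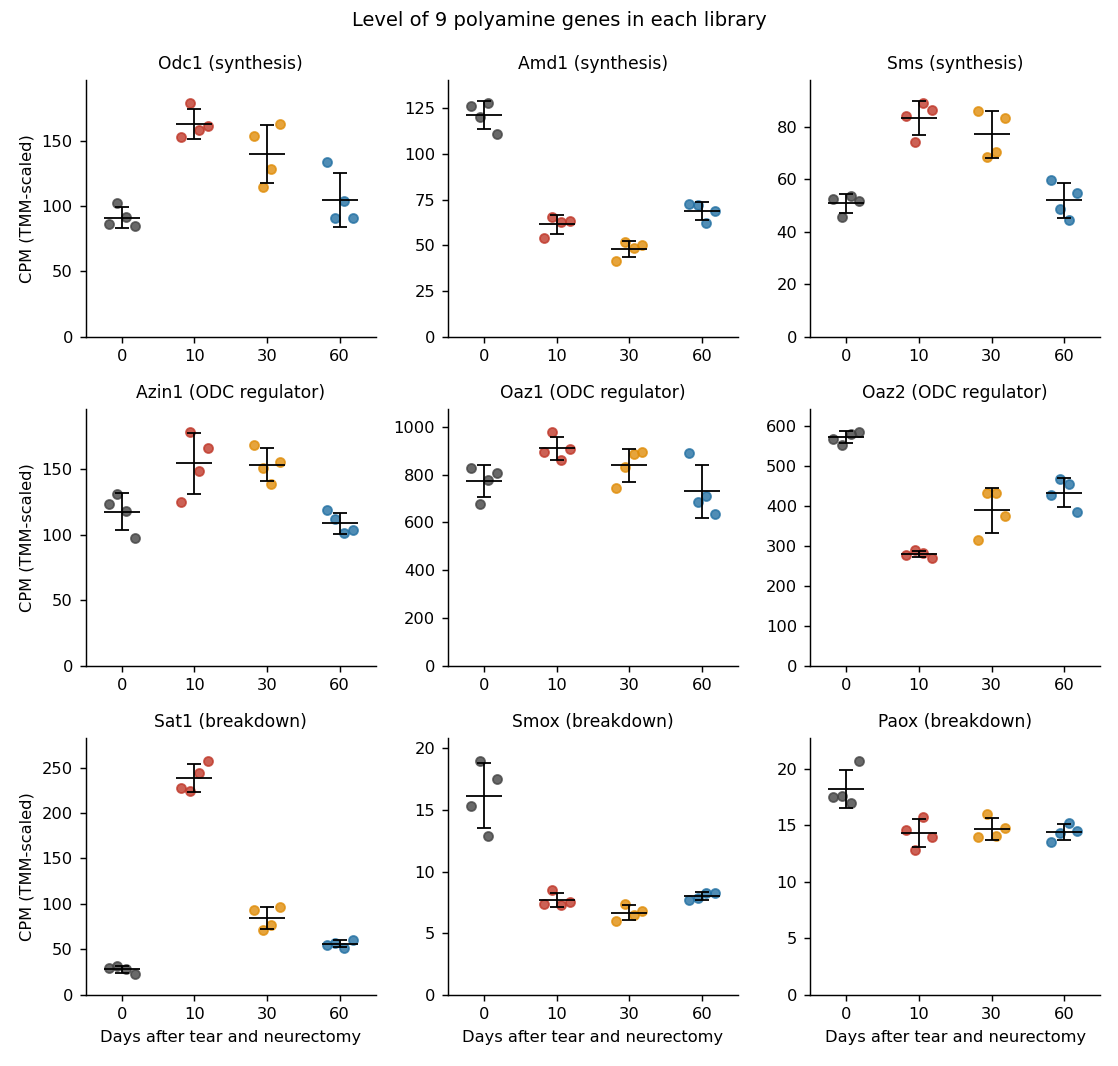
Level in CPM (y axis, from 0) of 9 polyamine genes in each of the 16 libraries, by days after tear and neurectomy (x axis); points are libraries, long bars the mean and error bars the SD of 4 libraries. Sat1 is at 224 to 257 CPM in the 10-day libraries and at 23.2 to 31.8 CPM in those of 0 days, and Amd1 is below its unoperated libraries in all 12 others.

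Of the genes that control ornithine decarboxylase, the antizyme inhibitor rose with Odc1 and the antizymes parted from each other. Azin1 was at 123, 131, 118 and 97.6 CPM at 0 days and at 125, 178, 149 and 167 CPM at 10 days. It was at 169, 151, 138 and 156 CPM at 30 days and at 119, 112, 101 and 103 CPM at 60 days. The 30-day libraries were above all of 0 days, and 1 library of 10 days (125 CPM) lay within the unoperated range. Azin1 had log2 fold changes of 0.40 ± 0.11 (SE; edgeR adjusted p 0.00452), 0.38 ± 0.11 (0.00548) and -0.11 ± 0.11 (0.388) at 10, 30 and 60 days. The 60-day direction flipped with library totals (0.29, edgeR adjusted p 0.0325) and with upper-quartile factors (0.03, not called).

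Oaz2 had its lowest level at 10 days. The unoperated libraries had 568, 550.5, 580.3 and 584 CPM of Oaz2, and those of 10 days had 276, 289.7, 281 and 270.2 CPM. Values of Oaz2 were 315, 431, 432 and 374 CPM at 30 days, then 426, 467, 453 and 384 CPM by 60 days. The 4 groups followed the order 10, 30, 60 and 0 days, with overlap between 30 and 60 days alone. Oaz2 fell by 51.1% at 10 days (log2 -1.03 ± 0.09 SE, edgeR adjusted p 7.51e-08). It fell by 32.0% at 30 days (-0.56 ± 0.09, edgeR adjusted p 6.81e-05) and fell by 24.2% at 60 days (-0.40 ± 0.09, edgeR adjusted p 0.00154). With library totals the 10-day fall was -0.37 (edgeR adjusted p 0.00025), the 30-day call was lost (-0.07) and the 60-day value was 0.01.

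Oaz1, the more general antizyme, whose protein is made only when the ribosome shifts frame, showed the smallest differences of the 3 regulators. The unoperated libraries had 829.5, 676, 778 and 805 CPM of Oaz1, and those of 10 days had 893, 977, 861 and 907 CPM. Values of Oaz1 were 744, 832, 884 and 894 CPM at 30 days, then 889, 686, 709 and 635 CPM by 60 days. The 10-day libraries lay above those of 0 days and the other groups overlapped with them. Its log2 fold changes of 0.24 ± 0.10 (SE), 0.12 ± 0.10 and -0.08 ± 0.10 at 10, 30 and 60 days were not called (edgeR adjusted p 0.0573, 0.328 and 0.516). Oaz1 was called higher at 10 days in 7 alternatives. These were library totals (0.89), upper-quartile factors (0.29), a minimum mean of 1 CPM (0.25), a fit of the 8 libraries compared (0.21), and fits without 30-day replicate 1, 60-day replicate 1 or 60-day replicate 4 (0.24 in each). At 30 days it was called higher with library totals (0.61) and upper-quartile factors (0.24, edgeR adjusted p 0.0364), and at 60 days with library totals (0.32).

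The breakdown genes held both the largest rise and a lasting fall. Sat1, the acetyltransferase that starts the export and breakdown of spermidine and spermine, was at 29.5, 31.8, 28.1 and 23.2 CPM at 0 days. The 10-day libraries had 228, 224, 244 and 257 CPM of Sat1. Values were 93.3, 71.4, 77.0 and 96.2 CPM at 30 days, then 54.5, 57.5, 51.8 and 60.3 CPM by 60 days. No library of any of the 4 groups overlapped with another group, and the order was 10, 30, 60 and 0 days. Sat1 rose by log2 3.08 ± 0.11 (SE; edgeR adjusted p 1.58e-11), 1.58 ± 0.11 (4.39e-09) and 0.99 ± 0.11 (1.06e-06) at 10, 30 and 60 days. By adjusted p it ranked number 2 of the 11658 genes tested at 10 days, and by log2 fold change it ranked 212 from the highest. With library totals its values were 3.74, 2.08 and 1.40.

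Macrophages and other leukocytes can carry polyamine genes of their own, and their markers moved with time. At 10 days 8 of 10 macrophage and leukocyte markers were higher (33.3% of all genes), and at 30 and 60 days all 10 were (33.7% and 29.9%). Their summed level was 40.2 to 64.1 CPM at 0 days, 120 to 169.8 at 10 days, 168 to 208 at 30 days and 138 to 263 at 60 days, with none at 0 in all libraries. The part of macrophages and leukocytes in the level of Sat1 was not tested. Other cell types moved with time as well. Of 6 tested fibroblast markers 4, 6 and 6 were higher at 10, 30 and 60 days (33.3%, 33.7% and 29.9% of all genes). Their summed level was 432 to 935 CPM at 0 days and 826 to 2414 CPM at 10 days (Col1a2 was listed at 0). All 5 endothelium markers and 3 of 5 Schwann cell markers were lower at 10 days (29.4% of all genes). All 5 Schwann cell and all 6 adipocyte markers were higher at 60 days (29.9%). All 3 blood markers were lower at 10 days (29.4% of all genes). Of 4 satellite cell markers 1 was higher and 1 lower at 10 days, and 2 and 1 were at 30 and at 60 days. Both tested T and B lymphocyte markers were higher at 10 and 30 days (33.3% and 33.7% of all genes), from a sum of 0.337 to 0.937 CPM at 0 days. The part of these cells in the levels of the polyamine genes was not tested.

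Smox, the spermine oxidase, had 15.3, 19.0, 12.9 and 17.5 CPM in the unoperated libraries and 7.37, 8.51, 7.28 and 7.53 CPM in those of 10 days. Values of Smox were 5.99, 7.38, 6.44 and 6.83 CPM at 30 days, then 7.70, 7.85, 8.30 and 8.27 CPM by 60 days. Every library after injury lay below every unoperated one. The counts behind these values were 140 to 517 fragments. Smox fell by 52.6% at 10 days (log2 -1.08 ± 0.11 SE, edgeR adjusted p 4.64e-07). It fell by 58.7% at 30 days (-1.28 ± 0.12, edgeR adjusted p 1.03e-07) and fell by 50.3% at 60 days (-1.01 ± 0.12, edgeR adjusted p 2.25e-06). With library totals it was called lower at each time as well (-0.42, -0.79 and -0.60).

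Paox, the oxidase that acts on the products of Sat1, had 17.5, 17.6, 16.95 and 20.7 CPM in the unoperated libraries and 14.6, 12.8, 15.8 and 14.01 CPM in those of 10 days. Values of Paox were 13.96, 16.05, 14.04 and 14.8 CPM at 30 days, then 13.5, 14.3, 15.3 and 14.5 CPM by 60 days. The unoperated libraries were above all others. Paox had log2 fold changes of -0.35 ± 0.09 (SE; edgeR adjusted p 0.00246), -0.31 ± 0.09 (0.00604) and -0.34 ± 0.09 (0.00382) at 10, 30 and 60 days. Library totals turned its direction (0.31, 0.19 and 0.07), and at 10 days Paox was then called higher (edgeR adjusted p 0.00868). With upper-quartile factors the 30- and 60-day calls were lost (-0.18 and -0.20).

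Most marker genes of the muscle fibre were lower after injury, beside the falls of Amd1, Smox, Oaz2 and Paox. Of 12 fibre markers, 11 were lower and 1 higher at 10 days (29.4% and 33.3% of all genes). At 30 days 9 were lower and 1 higher (30.9% and 33.7%), and at 60 days 7 and 2 (29.1% and 29.9%). Their summed level was 80080 to 87100 CPM at 10 days, 131561 to 186283 at 30 days and 166374 to 191389 at 60 days. From 10 to 60 days 9 of the 12 rose and 2 fell (29.1% and 31.9% of all genes). Over the same interval Oaz2 rose (0.63), and Amd1 (0.16), Smox (0.07) and Paox (0.01) were not called. The part of the fibre content in the levels of the polyamine genes was not tested.

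Comparisons between the injured groups show which genes changed again after day 10. From 10 to 30 days 1 of 9 genes was called higher (23.0% of all genes) and 2 lower (24.3%). Oaz2 rose (log2 0.47 ± 0.09 SE, edgeR adjusted p 0.000530). Sat1 fell (-1.50 ± 0.10, edgeR adjusted p 5.84e-08) and Amd1 fell further (-0.35 ± 0.08, edgeR adjusted p 0.00206). Odc1, Sms, Azin1, Oaz1, Smox and Paox were not called, with values of -0.22 to 0.04. With library totals Odc1 (-0.38, edgeR adjusted p 0.0201), Oaz1 (-0.28, 0.0145) and Smox (-0.37, 0.0194) were called lower.

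From 30 to 60 days 1 of 9 genes was called higher (10.3% of all genes) and 4 lower (12.4%). Amd1 rose (log2 0.52 ± 0.08 SE, edgeR adjusted p 0.000437). Sat1 (-0.59), Sms (-0.57), Azin1 (-0.50) and Odc1 (-0.41) fell. The call of Odc1 (-0.41 ± 0.13, edgeR adjusted p 0.0262) depended on single libraries. It was lost without 30-day replicate 1 (-0.37) or 4 (-0.34) and without 60-day replicate 2 (-0.35), 3 (-0.41) or 4 (-0.34), with edgeR adjusted p of 0.0572 to 0.0924, and in a fit of these 8 libraries alone (-0.42, edgeR adjusted p 0.0928). Oaz1 was not called (-0.20), but was called lower without 60-day replicate 1 (-0.31, edgeR adjusted p 0.0178) and with library totals (-0.29, 0.0267).

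From 10 to 60 days 1 of 9 genes was called higher (29.1% of all genes) and 5 lower (31.9%). Oaz2 rose (log2 0.63 ± 0.09 SE, edgeR adjusted p 2.08e-05). Sat1 fell by 76.5% (-2.09 ± 0.11, edgeR adjusted p 1.22e-09), and Sms (-0.68), Odc1 (-0.64) and Azin1 (-0.51) fell less. Oaz1 fell slightly (-0.32 ± 0.10, edgeR adjusted p 0.0143), a call lost without 60-day replicate 4 (-0.24, edgeR adjusted p 0.0685). Amd1 (0.16 ± 0.08, edgeR adjusted p 0.0948), Smox (0.07 ± 0.12, 0.643) and Paox (0.01 ± 0.09, 0.941) were not called. Paox was called lower with library totals (-0.24, edgeR adjusted p 0.0456). Amd1 was called higher with upper-quartile factors (0.25, edgeR adjusted p 0.00877), with a minimum mean of 1 CPM (0.19, 0.0460) and without 60-day replicate 3 (0.21, 0.0482). The comparisons share groups, so their values are given side by side and not counted as separate support.

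Ratios of 2 genes within a library do not depend on how libraries are scaled, and 5 pairs were compared between groups. A sixth pair, Sms to Srm, could not be formed because Srm was listed at 0. The tests planned for that pair are not in the adjustment. With 5 pairs and 6 pairs of groups there were 30 two-sided exact permutation tests. Of these, 18 had the smallest p possible for 4 against 4 libraries, 0.0286 (adjusted p 0.0476), and passed at an adjusted p under 0.05. That adjusted p depends on how many of the 30 tests reached the smallest p, so the 18 passed as a set. Fewer tests at the smallest p, or more tests in all, could leave none of them passing. Had the tests of the sixth pair stayed in the adjustment without reaching the smallest p, none of the 18 would have passed. A pass below therefore holds for this set of 30 tests only. A ratio says nothing of which gene is the more abundant, only how it moved between groups.

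The log2 ratio of Amd1 to Odc1 fell from 0.42 ± 0.13 (SD, n = 4) at 0 days to -1.40 ± 0.08 at 10 days and -1.53 ± 0.32 at 30 days, and was -0.59 ± 0.27 at 60 days. All 3 differences from 0 days passed (-1.82, -1.95 and -1.01). The ratio rose from 10 to 60 days by 0.82, which also passed. The log2 ratio of Odc1 to Oaz1, enzyme to antizyme, was higher at 10 than at 0 days by 0.60 (exact permutation p 0.0286, adjusted p 0.0476), from -3.08 ± 0.25 (SD, n = 4) to -2.48 ± 0.05. At 30 and 60 days its differences of 0.49 and 0.28 did not pass (adjusted p 0.117 and 0.179, exact permutation tests). The ratio of Odc1 to Azin1 passed at 10 days alone of the 3 times (0.45), with 0.22 and 0.29 at 30 and 60 days.

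Among breakdown genes, the log2 ratio of Sat1 to Paox rose by 3.44, 1.89 and 1.33 at 10, 30 and 60 days, and all 6 of its group comparisons passed. The log2 ratio of Smox to Paox fell by 0.71, 0.96 and 0.66, each of which passed. The fall of Smox against Paox is therefore free of the scaling on which the direction of Paox itself depends. From 30 to 60 days the ratio of Smox to Paox rose by 0.30, which also passed.

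**Figure D3:**
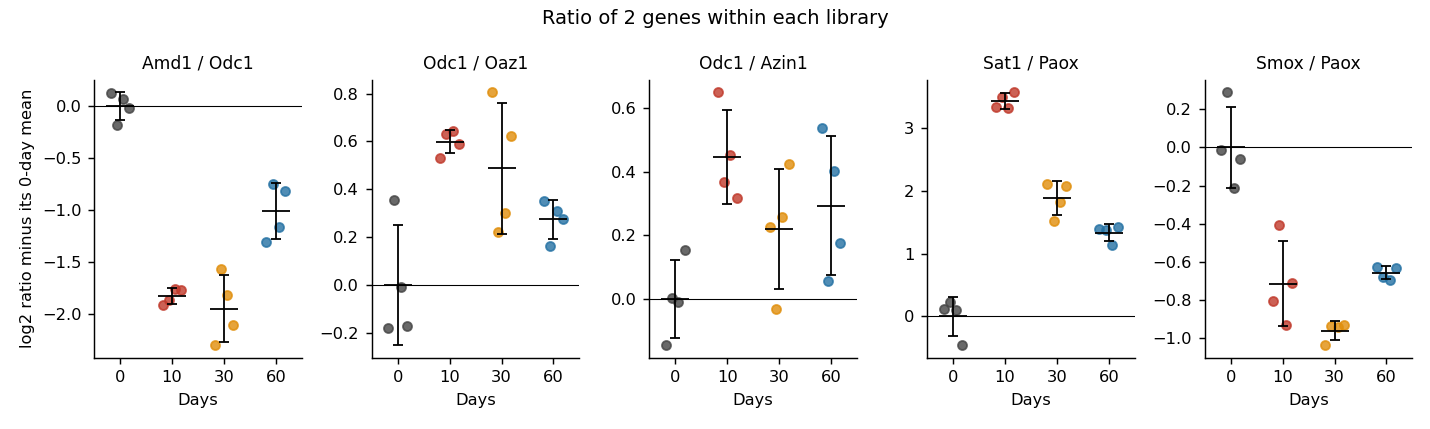
Log2 ratio of 2 genes within each library, minus its mean at 0 days (y axis), by days after tear and neurectomy (x axis); points are libraries, long bars the mean and error bars the SD of 4 libraries, and each panel has its own scale. Amd1 to Odc1 is lower after injury in all 12 libraries, and Sat1 to Paox is higher in all 12.

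The rest of the pathway was read from 43 genes in 6 lists, of which 42 were in the table and 36 were tested. At 10 days 15 of the 36 were called higher and 10 lower (33.3% and 29.4% of all genes). At 30 days 16 and 9 were (33.7% and 30.9%), and at 60 days 9 and 11 (29.9% and 29.1%). These counts are near the shares over all genes. Their median log2 fold changes were 0.17, 0.15 and 0.02, beside 0.06, 0.05 and 0.04 for all genes. The split depends on scaling: with library totals it was 26 and 1, 22 and 4, and 18 and 2, and with upper-quartile factors it was 15 and 9, 16 and 7, and 12 and 6. The split of all 11658 genes tested moved as well. With library totals it was 8166 and 1182, 7361 and 1393, and 6737 and 1407. With upper-quartile factors the all-gene split was 4273 and 3142, 4759 and 2893, and 4555 and 2607.

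Of 8 genes that supply arginine and ornithine, 3 were higher and 2 lower at 10 days (33.3% and 29.4% of all genes). The 2 that were lower, Oat (-0.61) and Slc7a2 (-0.77), are named after their values were seen; with library totals Oat flipped (0.04) and the call of Slc7a2 was lost (-0.11). Asl, which makes arginine from argininosuccinate, rose at all 3 times (log2 1.16 ± 0.10 SE, 1.21 ± 0.10 and 0.75 ± 0.10), from 9.80 CPM ± 0.621 (SD, n = 4) to 21.9 ± 1.99 at 10 days. Arg1, the arginase that makes ornithine and a known macrophage gene, was near the limit of the depth, at 0.279 CPM ± 0.144 (SD, n = 4) and 3 to 10 fragments at 0 days. Its log2 fold changes of 1.60, 2.03 and 1.58 were called. The 10-day call of Arg1 was lost without 10-day replicate 3 and the 60-day call without 0-day replicate 2 (edgeR adjusted p 0.0650 and 0.0589). Agmat, named for the hydrolysis of agmatine to putrescine, was also low (2 to 7 fragments at 0 days) and called at 10 and 30 days (1.68 and 2.74).

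Of 8 tested genes that make S-adenosylmethionine or recycle methylthioadenosine, the by-product of spermidine and spermine synthesis, 4 were higher and 1 lower at 10 days (33.3% and 29.4% of all genes). The 1 that was lower, Apip (-0.35), is named after its values were seen, and it flipped with library totals (0.30). Mat2a, the methionine adenosyltransferase outside the liver, rose at 10 and 30 days (log2 0.40 ± 0.11 SE and 0.57 ± 0.11, edgeR adjusted p 0.00580 and 0.000352) and was 0.01 at 60 days. Adi1, of the salvage pathway, rose at the same times (0.66 and 0.28). Its 60-day value of -0.14 was not called and flipped with library totals (0.27) and upper-quartile factors. Ahcy, which clears S-adenosylhomocysteine, rose at 10 days (0.69 ± 0.07) and fell at 60 days (-0.48 ± 0.07), a fall that library totals reduced to -0.07.

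Spermidine is the donor for hypusine, a modified lysine that the translation factor eIF5A needs. Dhps, the enzyme that transfers it, averaged 66.3 CPM ± 1.99 (SD, n = 4) in unoperated muscle, then 46.2 ± 2.03, 41.6 ± 1.51 and 49.1 ± 4.51 CPM after 10, 30 and 60 days. Dhps fell at each time (log2 -0.52, -0.67 and -0.43, each ± 0.07 SE), but with library totals its 10-day value flipped to 0.14 and its 60-day call was lost (-0.03). Dohh, which completes the modification, fell too (-0.28, -0.62 and -0.60), and with library totals its 10-day direction flipped (0.38) and its later calls were lost (-0.13 and -0.20). That 10-day call was also lost without 0-day replicate 2 or 4 or 10-day replicate 1 or 4 (edgeR adjusted p up to 0.0923). Eif5a itself was higher at 10 days (0.30 ± 0.07, edgeR adjusted p 0.00173). Eif5a was lower at 60 days (-0.21 ± 0.07, 0.0181), where library totals turned the direction (0.19, edgeR adjusted p 0.0178). The 60-day call of Eif5a was lost without 0-day replicate 1 or 3 or 60-day replicate 4 (edgeR adjusted p up to 0.0996).

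Of 8 tested transport genes, 2 were higher and 5 lower at 10 days (33.3% and 29.4% of all genes). Atp13a3, a polyamine transporting ATPase, was low (5 to 16 fragments at 0 days) and rose at 10 and 30 days (log2 2.39 ± 0.51 SE and 1.67 ± 0.52, edgeR adjusted p 0.000614 and 0.0107). Slc47a1, an exporter of organic cations, fell at those times (-1.44 and -1.45, each ± 0.37). Slc22a3, a cation carrier, fell at 10 days (-1.35 ± 0.32, edgeR adjusted p 0.00147). With library totals the 10-day calls of Slc47a1 (-0.78) and Slc22a3 (-0.70) were lost. Atp13a2, also on this list and named after its values were seen, fell at all 3 times (-0.80, -1.09 and -0.86). Its 10-day call was lost with library totals (-0.15), and its later calls were kept (-0.60 and -0.46).

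Among 5 genes of further antizyme-related and breakdown proteins, 2 could be tested. Sat2, a relative of Sat1, rose at each time (log2 0.36, 0.54 and 0.64). Azin2, listed under its older symbol Adc, fell at 60 days (-0.68 ± 0.24 SE, edgeR adjusted p 0.0207), a call lost with library totals (-0.27) and without 0-day replicate 1 or 60-day replicate 1 or 2 (edgeR adjusted p up to 0.0655).

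Among regulators known to act on polyamine genes, Myc, Pmf1 and Nfe2l2 were higher at each time. Myc, a transcription factor for which Odc1 is a classic target, averaged 4.21 CPM ± 1.38 (SD, n = 4) in unoperated muscle, then 37.1 ± 6.13, 26.3 ± 2.87 and 12.3 ± 1.92 CPM after 10, 30 and 60 days. Myc rose by log2 3.13 ± 0.20 (SE; edgeR adjusted p 2.39e-09), 2.64 ± 0.20 (1.64e-08) and 1.54 ± 0.20 (8.55e-06). Pmf1, a cofactor named for polyamine-responsive regulation of Sat1, was low (18 to 31 fragments at 0 days) and rose by log2 0.63, 1.01 and 0.64. The 10-day call of Pmf1 was lost without 0-day replicate 2 or 10-day replicate 3 (edgeR adjusted p up to 0.0586). Its 60-day call was lost without 0-day replicate 2 or 60-day replicate 3 (edgeR adjusted p up to 0.0746). Nfe2l2 rose by 0.56, 0.42 and 0.28. Mycn, which was low (2 to 9 fragments at 0 days), was not called at any time. Both Nfe2l2 and Mycn are named here after their values were seen.

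**Figure D4:**
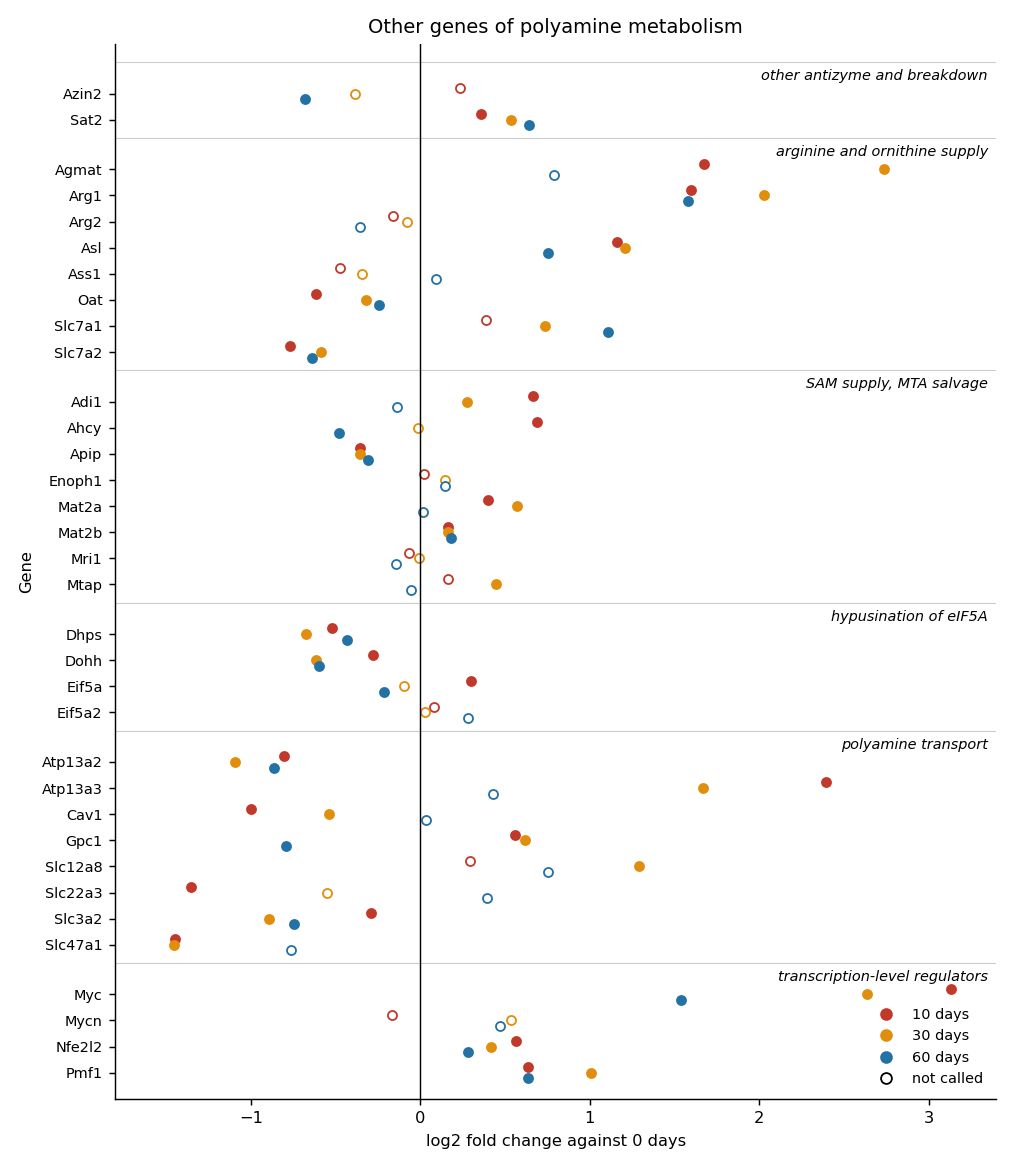
Log2 fold change against 0 days (x axis) of tested genes of 6 lists around the polyamine pathway (y axis, by list) at 10, 30 and 60 days; filled points were called by edgeR at an adjusted p under 0.05 and open points were not. Myc lies farthest to the right at 10 days (3.13) and Slc47a1 farthest to the left at 30 days (-1.45).

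The genes whose levels most resembled those of 4 members over the 16 libraries were found by Pearson correlation of log2 CPM. The search covered 8224 tested genes with a mean of at least 5 CPM. Symbols that are accessions or LOC, RGD or MGC names were left out. The libraries share their group structure, so these are descriptions and carry no test. For Sat1 they were Spire1 (r 0.99), Ctnna1 (0.99) and Ppp1r14b (0.98). Spire1, for instance, averaged 10.8 CPM in unoperated muscle and 49.8, 22.9 and 16.4 CPM after 10, 30 and 60 days. For Odc1 they were Klhl41 (0.97), Eif3l (0.96) and Grina (0.96). For Amd1 they were Ubl3 (0.99), Fkbp4 (0.97) and Tmem248 (0.97), and for Smox they were Tpcn1 (0.97), Aaed1 (0.96) and Lrrc14b (0.96).

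Among the members themselves, described in the same way, Amd1 and Smox had a correlation of 0.93 over the 16 libraries and Odc1 and Sms one of 0.87. Sat1 and Oaz2 ran opposite to each other (-0.97). Amd1 and Odc1 had a correlation of -0.68, although both encode decarboxylases at the start of polyamine synthesis.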

How the data were processed

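RNA of the supraspinatus was extracted with a miRNeasy kit and made into TruSeq mRNA libraries, per the labels' protocols. The authors deposited an expected count per gene and library, listed as raw fragments; per the submitters' processing notes the tools were TopHat2 2.0.9, Bowtie2 2.1.0.0 and Cuffdiff 2.1.1 with genome rn5. Strandedness, annotation and filters are not given in the sources used here. Of 17147 genes, 233 had a fractional value, and 2637 were at 0 in all 16 libraries.

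Counts were rounded to whole numbers. A filter by group (filterByExpr) left 11658 genes. All 16 libraries, grouped by the time in their labels, entered 1 edgeR quasi-likelihood fit (robust, TMM, no covariate). The 6 pairs of groups were tested, with Benjamini-Hochberg adjustment over all genes and calls at an adjusted p under 0.05. CPM are TMM-scaled, and log2 CPM used a prior count of 2. SE is the log2 fold change divided by the square root of F. Ratios used a prior count of 0.5 and exact permutation tests. A floor of 3 fragments corresponds to 0.0712 to 0.175 TMM-scaled CPM, which covers counting error only. On simulated counts with 199 genes changed 2-fold between 10 and 0 days among 11534 tested, 160 were called, as were 16 unchanged genes.

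The members and lists were chosen with earlier results of these data known. All 10 members are named. Of the other pathway genes up to 3 a list are, by largest log2 fold change among those called at any time against 0 days. Genes marked as named after their values were seen come in addition. For 2 genes of the regulator list, which stay in the counts, values are not reported here. Genes most like a member were the 3 with the highest correlation, with accession, LOC, RGD and MGC symbols left out beforehand. Promoter windows are from RefSeq's GRCr8 tables, which were also used for older symbols. Alternatives were RLE and upper-quartile factors, library totals, DESeq2, limma-voom, 2 other filters, fits of 2 groups, no robust estimation, the replicate block, the title letter, an adjusted p under 0.01, a prior count of 2 in ratios, each library left out and, added after seeing the data, thinning to the smallest total. Libraries of 1 group were not copies of each other (chi-square per gene at least 13.2 in 24 pairs). The fits ran in edgeR 4.0.16 under R 4.3.3 (DESeq2 1.42.0 and limma 3.58.1 for alternatives), and the rest in python 3.11.15 with scipy 1.17.1 and matplotlib 3.10.9.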

Additional observations from a re-analysis of the deposited data

Results flagged for a closer look

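The differences from unoperated muscle were not of 1 size over time for 7 of the 9 tested genes, by edgeR's contrasts between injured groups. In all, 14 such differences were called, and the contrasts share groups, so these are not separate results. Of all genes, 23.0% were called higher and 24.3% lower from 10 to 30 days. The shares were 10.3% and 12.4% from 30 to 60 days and 29.1% and 31.9% from 10 to 60 days. From 10 to 30 days the log2 fold change was -1.50 for Sat1, -0.35 for Amd1 and 0.47 for Oaz2. From 30 to 60 days it was -0.59 for Sat1, -0.57 for Sms, -0.50 for Azin1, -0.41 for Odc1 and 0.52 for Amd1. From 10 to 60 days it was -2.09 for Sat1, -0.68 for Sms, -0.64 for Odc1, -0.51 for Azin1, -0.32 for Oaz1 and 0.63 for Oaz2. Smox and Paox had no called difference between injured groups with TMM. With library totals Smox was called lower from 10 to 30 days (-0.37) and Paox from 10 to 60 days (-0.24).

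No library stood far from the other 3 of its group in any of 36 groups of 4 values (9 genes at 4 times) by Dixon's criterion, which chance alone would meet in about 1 of 20 groups.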

How the results depend on the processing

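Of 54 results (9 genes in 6 comparisons), 35 were called, and 28 of these kept direction and call in every alternative, 33 in every fit that left out a library. RLE factors, DESeq2, limma-voom and no robust estimation changed no call of the 54, and neither did the replicate block. Same-numbered libraries had mean correlations of -0.107 to 0.0626 per comparison, and at most 2 of 4 pairs were over 0.1 (60 against 10 days). For 30 against 0 days all 4 libraries correlated best with their own number (0.049 to 0.074), a hint from the data and not the design. No ratio passed under the replicate block (0 of 30, smallest p possible 0.125) or with a library left out (0 to 0), since 3 against 4 libraries cannot go below 0.0571 and the adjustment runs over all 30 tests.

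With library totals, 6 of 9 genes were called between 30 and 10 days (3 otherwise). Of all 11658 genes, 1533 were called higher and 4021 lower there (2680 and 2833 with TMM). With library totals, signs turned for Paox at 10, 30 and 60 days (0.31, 0.19 and 0.071) and between injured groups (-0.13 for 30 against 10 days, -0.24 for 60 against 10). They also turned at 60 days for Oaz1 (0.32), Azin1 (0.29) and Oaz2 (0.0069), and from 10 to 60 days for Smox (-0.18) and Amd1 (-0.087). Upper-quartile factors turned Oaz1 (0.057) and Azin1 (0.029) at 60 days and Azin1 from 10 to 30 days (0.060). Other turns were of values near 0 that were not called. Azin1 from 10 to 30 days was 0.0072 with a minimum mean of 1 CPM and 0.099 with the title letter, which also gave -0.00068 and 0.0091 for Paox from 10 to 30 and from 30 to 60 days. Paox from 10 to 60 days was -0.012 with no filter and -0.021 after thinning, and Sms at 60 days was -0.012 after thinning. The cause was not tested.

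Leaving out single libraries moved Sms at 60 days between -0.042 and 0.10, Oaz1 at 60 days between -0.19 and 0.00069, and Azin1 from 10 to 30 days between -0.10 and 0.064. Paox ranged from -0.0081 to 0.090 from 10 to 30 days, from -0.061 to 0.013 from 30 to 60 days and from -0.042 to 0.057 from 10 to 60 days. The log2 ratio of Odc1 to Azin1 from 30 to 60 days ranged from -0.0094 to 0.15, and that of Smox to Paox from 10 to 60 days from -0.016 to 0.16. At an adjusted p under 0.01, 12 other pathway genes were called at 60 days (20 at 0.05) and 6 between 30 and 10 days (13 at 0.05). The share of all genes at 0.01 is not given here, so these losses cannot be read as particular to the pathway.

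Depth limits the values of Agmat, Arg1, Atp13a3 and Mycn, which had 2 to 16 fragments in unoperated libraries.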
